A study of Mus musculus with 9 samples.

Results

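The response to 1 short hairpin RNA against Brg1, named Brg1sh_3232, was set against the response to a control hairpin in a mouse leukaemia line. The members were the 2 arrays titled Brg1sh_3232 and the 3 arrays titled Rluc, 5 of the 9 arrays of the series, and the readout covered 19937 genes. The cells were RN2, a mouse acute myeloid leukaemia line that carries the fusion oncogene MLL-AF9 and the activated NrasG12D allele, and both groups share these oncogenes. Both groups also received 1 ug/ml doxycycline for 96 h, which switches on the hairpin from its inducible vector, TRMPV. Brg1sh_3232 targets Brg1, the protein encoded by Smarca4. The control hairpin, Rluc, targets Renilla luciferase, a gene that mouse cells do not have. The control arrays carry an additional term, TtTMPV, in their cell line label, which the knockdown arrays lack, and any effect of this difference cannot be told apart from that of the hairpin. The other 4 arrays come from the same line with the hairpins Brg1sh_3364 and Brg1sh_4935 against the same target, 2 arrays each, with the same doxycycline dose and time. All groups rest on 1 cell line in culture, and no array without doxycycline was used here.

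Brg1 is one of a pair of alternative ATPases of the SWI/SNF complexes (also called BAF complexes), which use ATP to slide or evict nucleosomes and so open DNA to transcription factors. Its alternative is Smarca2 (Brm), and the remaining subunits help to target the complex or hold it together. In MLL-rearranged myeloid leukaemia, SWI/SNF is known for keeping distal enhancers of Myc accessible, and the series was designed to map the genes downstream of Brg1 in such cells.

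RNA was measured on whole-transcript Affymetrix arrays, and each value is the log2 expression of a probe set after robust multi-array averaging (RMA), called level here. Array medians lay between 7.39 and 7.49. Correlations over all probe sets were 0.996 between the 2 knockdown arrays and 0.991 to 0.994 between a knockdown and a control array. The 2 knockdown arrays differed by a median of 0.072 on the log2 scale per gene, and 64 genes were over 0.5 apart. Precision is limited throughout by how few arrays there are. Of the myeloid markers, Ptprc (CD45, 12.15 to 12.45), Spi1 (PU.1, 12.68 to 13.15) and Itgam (CD11b, 12.90 to 13.34) were bright on all 5 arrays. With Brg1sh_3232, Ptprc rose by 0.23 (SE 0.054), Spi1 by 0.34 (SE 0.065) and Itgam by 0.39 (SE 0.043), as did Csf1r. In the same marker set, Cebpa fell by 0.39 (SE 0.057), Mpo and Hoxa9 also fell, and Kit, Myb and Meis1 did not pass the test.

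Smarca4 itself, the targeted gene, stood at 10.67 and 10.90 in the Brg1sh_3232 arrays and at 11.79, 11.77 and 11.79 in the controls. Both knockdown arrays lay below every control array. The difference was -0.999 (SE 0.065, adjusted p = 2.66e-05, limma with Benjamini-Hochberg adjustment over all genes), which left 50.03% of the control level (95% confidence interval 45.2% to 55.4%). An exact permutation test of 2 arrays against 3 cannot give a p below 0.1, so all calls rest on the fit across genes. Against the same controls the other hairpins gave -0.99 (Brg1sh_3364) and -1.05 (Brg1sh_4935). The direct differences of Brg1sh_3232 were -0.007 from Brg1sh_3364 (95% interval -0.17 to 0.15, adjusted p = 0.973) and 0.054 from Brg1sh_4935 (-0.11 to 0.21, adjusted p = 0.804).

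Of the 19937 genes, 4155 (20.8%) passed an adjusted p of 0.05 between Brg1sh_3232 and Rluc. Of these, 1912 rose (9.59% of all genes) and 2243 fell (11.3%). A called change had a median size of 0.34 on the log2 scale. At least 2-fold changes comprised 114 rises and 48 falls, and at least 4-fold changes 11 rises and 6 falls. Without regard to the test, both knockdown arrays lay above all 3 controls for 4020 genes (20.2%) and below all 3 for 4142 genes (20.8%). The counts depend on both knockdown arrays: without Brg1sh_3232 replicate 2 they were 1136 rises and 1337 falls, and without Brg1sh_3232 replicate 1 they were 1701 and 1481. Rises made up 46% of the calls with all arrays and 53.5% in the latter setting, so which direction held more genes turned with that array.

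**Figure D1:**
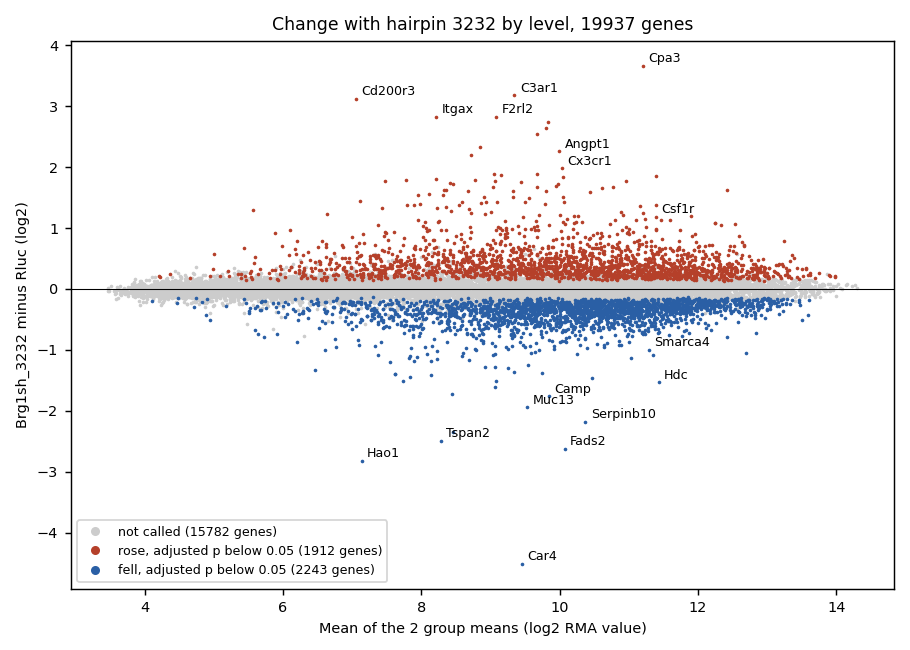
Each point is 1 of 19937 genes, with the average of the Brg1sh_3232 and Rluc means on the x axis (log2 RMA value) and their difference on the y axis (log2). Red points (1912) rose and blue points (2243) fell at an adjusted p below 0.05, grey points were not called, and Car4 at -4.51 and Cpa3 at 3.67 are the farthest from 0.

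The lists below are set against the shares over all genes. In a fit of only the genes at or above the median level, 1979 rose and 2438 fell, more than over all genes. Shares over all genes are thus a low mark for lists of bright genes. Of 30 SWI/SNF subunits measured, 6 rose (20%, against 9.59% of all genes) and 3 fell (10%, against 11.3%), Smarca4 included. The median was 0.020 against 0.005 for all genes. Bicral, an accessory subunit of the non-canonical complex, rose by 0.51 (SE 0.076), Arid1b, a DNA-binding subunit of canonical BAF, by 0.36 (SE 0.062) and Bcl7b by 0.25 (SE 0.045). Besides Smarca4 the falls were Brd7 (-0.26) and Actl6a (-0.22), named after their values were seen because the count is small. Without Brg1sh_3232 replicate 2 the falls numbered 1. Smarca2, the alternative ATPase, had levels of 10.98 and 10.92 against 10.83, 10.80 and 10.63 in the controls. Both knockdown arrays lay above the controls, and the difference of 0.20 (SE 0.063) missed the threshold at an adjusted p of 0.0576. It passed without Rluc replicate 1, at an adjusted p of 0.036.

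Myc encodes the transcription factor that drives growth and ribosome production in these cells. Its levels were 12.05 and 12.23 with Brg1sh_3232 and 12.47, 12.34 and 12.39 with Rluc. Both knockdown arrays were below the controls, by a narrow margin for replicate 2. The difference was -0.26 (SE 0.065, adjusted p = 0.0209), or 83.45% of the control level. That call was lost without Brg1sh_3232 replicate 1 (-0.17, adjusted p = 0.144), without Rluc replicate 1 (adjusted p = 0.054), when every row of the deposited values was fitted (adjusted p = 0.0593) and when the 5 arrays were fitted alone (adjusted p = 0.0829). Against the same controls, Myc gave -1.01 with Brg1sh_3364 and -0.54 with Brg1sh_4935. Directly compared, Myc was higher with Brg1sh_3232 than with Brg1sh_3364 by 0.75 (SE 0.072, adjusted p = 0.000605). The difference of 0.28 from Brg1sh_4935 did not pass over all genes (adjusted p = 0.112, unadjusted 95% interval 0.11 to 0.44). Myc thus kept more of its level with this hairpin than with Brg1sh_3364, while the interval of the Smarca4 difference between them included 0.

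Among the 13 measured genes of the Myc and Max network, 3 rose (23.1%, against 9.59% of all genes) and 2 fell (15.4%, against 11.3%). Those that rose were Mxd4 (0.48, SE 0.049) and Mnt (0.25, SE 0.051), both repressors that compete with Myc for Max, and Mycl (0.47, SE 0.060), a Myc paralogue. Myc was joined among the falls by Max, its obligate partner, at -0.17 (SE 0.040). Max lost its call without either Brg1sh_3232 array (adjusted p = 0.0573 and 0.0555), and Mnt without replicate 2 (adjusted p = 0.0598).

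More leukaemia and self-renewal genes rose than fell. Hoxa9, a homeobox gene induced by MLL fusions, stood at 11.69 and 11.67 against 12.08, 12.15 and 12.28. The groups did not overlap, and Hoxa9 fell by 0.49 (SE 0.060, adjusted p = 0.000603). Meis1, its cofactor, gave 0.13 (SE 0.072, adjusted p = 0.278), Myb -0.025 (adjusted p = 0.754) and Kit, the stem cell factor receptor, 0.007 (adjusted p = 0.952), none of them called. Of 36 measured genes on this list, 11 rose (30.6%, against 9.59% of all genes) and 3 fell (8.33%, against 11.3%), with a median of 0.016. Gfi1b, a transcriptional repressor of the erythroid and megakaryocyte lineages, rose from 8.70, 9.02 and 9.30 to 10.56 and 10.66 (1.61, SE 0.15). Eya1, a transcriptional coactivator and phosphatase, rose by 1.45 (SE 0.090) and Ikzf2, an Ikaros family zinc finger, by 0.61 (SE 0.069). Besides Hoxa9 the falls were Erg (-0.42) and Hoxa10 (-0.25), named because the count is small. Without Brg1sh_3232 replicate 2 the rises on this list numbered 6.

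The 14 largest rises, chosen among genes whose groups do not overlap, were led by Cpa3. Cpa3, a carboxypeptidase best known from mast cell granules, reached 12.96 and 13.11 with Brg1sh_3232, against 8.52, 9.73 and 9.87 in the controls. The knockdown arrays agreed closely, while the controls spread over more than 1 log2 unit, with replicate 1 the lowest. The rise was 3.67 (SE 0.33, adjusted p = 0.000125), or 12.7-fold. C3ar1, the receptor for the complement fragment C3a, stood at 10.84 and 11.03 against 7.27, 7.77 and 8.23 (3.18, SE 0.22, adjusted p = 3.67e-05). Itgax (CD11c), an integrin of dendritic cells and macrophages, stood at 9.48 and 9.76 against 6.46, 6.66 and 7.27 (2.83, SE 0.20). Lgmn, the lysosomal protease legumain, stood at 11.06 and 11.36 against 8.19, 8.65 and 8.54 (2.75, SE 0.14). For all 4 genes the gap between the groups exceeded the spread within either.

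The remainder of the 14 largest rises ranged from 1.89 to 3.12. Cd200r3 (3.12, SE 0.21) and Cd200r4 (2.55, SE 0.17) belong to a family of paired myeloid receptors of similar sequence. F2rl2 (PAR3), a thrombin receptor, rose by 2.83 (SE 0.26) and Mc5r, a melanocortin receptor, by 2.64 (SE 0.23). Camk1d, a calmodulin-dependent kinase, rose by 2.32 (SE 0.13). Angpt1, the Tie2 ligand angiopoietin-1, was tight in both groups, at 11.19 and 11.07 against 8.95, 8.77 and 8.88, and rose by 2.26 (SE 0.077). Ifi207, an interferon-inducible gene of a family with near copies, rose by 2.20 (SE 0.15), Fblim1, an adaptor of cell adhesions, by 1.89 (SE 0.076) and Colec12, a scavenger receptor, by 1.89 (SE 0.18).

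**Figure D2:**
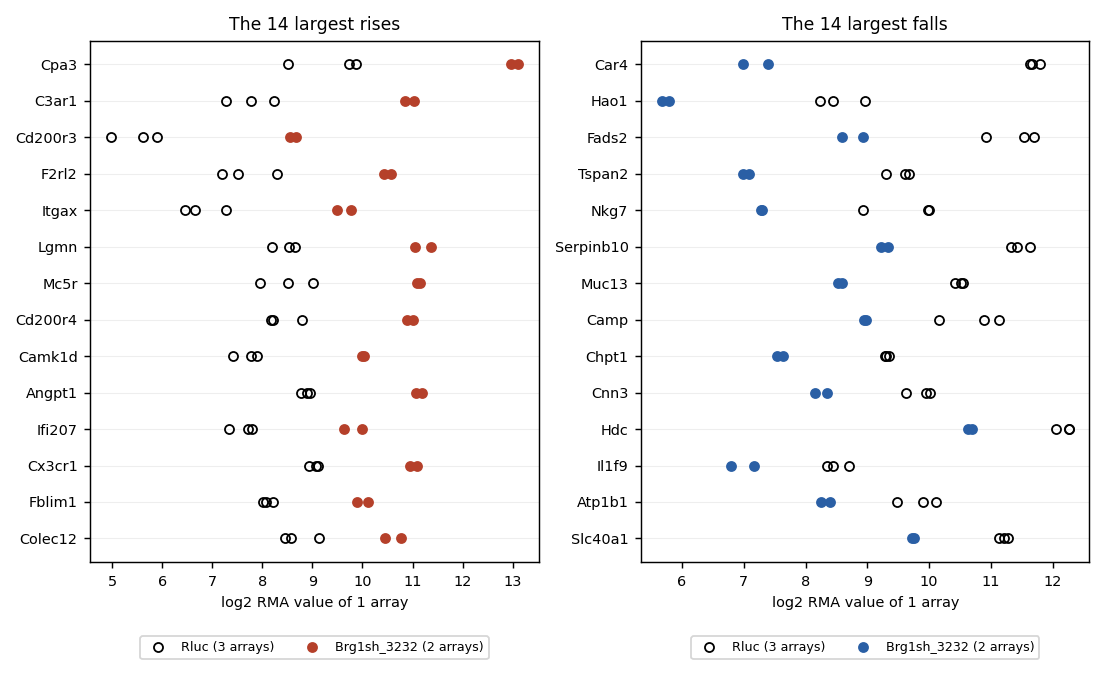
Each point is 1 array's level (log2 RMA value, x axis) of a gene (y axis), with open circles for the 3 Rluc arrays and filled circles for the 2 Brg1sh_3232 arrays. The 28 genes were chosen for groups that do not overlap, and in most the controls are wider apart than the knockdown arrays, as for Cpa3 (8.52 to 9.87).

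Of 51 macrophage and monocyte markers measured, 23 rose (45.1%, against 9.59% of all genes), 1 fell and 27 were not called, with a median of 0.20. Csf1r, through which CSF1 sustains macrophages, stood at 11.94 and 12.04 against 10.79, 10.81 and 10.80. The controls lay almost together, and Csf1r rose by 1.19 (SE 0.046, adjusted p = 1.96e-06). Cx3cr1, the fractalkine receptor, rose by 1.98 (SE 0.064). Mpeg1, a pore-forming protein of macrophages, rose by 1.13 (SE 0.046) and Adgre1 (F4/80) by 1.08 (SE 0.060). Cd14, the lipopolysaccharide co-receptor, rose by 0.67 (SE 0.077) and Itgam by 0.39 (SE 0.043). The single fall was F13a1, the A chain of coagulation factor XIII, at -1.11, named because it was alone. The rises on this list numbered 14 without Brg1sh_3232 replicate 2. In bulk RNA, more cells of a type and more RNA per cell cannot be told apart.

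Phagocyte receptors had the highest median of the 37 lists, 0.41: of 37 measured, 20 rose (54.1%) and 3 fell. Tlr13, a sensor of bacterial ribosomal RNA, stood at 11.79 and 11.90 against 9.86, 10.08 and 10.27 (1.77, SE 0.10). P2ry14, a receptor for UDP-sugars, rose by 1.69 (SE 0.098) and Pirb, an inhibitory immunoglobulin-like receptor, by 1.66 (SE 0.11). The falls, Clec4e (-0.51), Tlr1 (-0.38) and Fcgr2b (-0.22), are named because they were few, and without Brg1sh_3232 replicate 1 they numbered 0. Integrins and chemokine receptors gave 15 rises (50%) and 4 falls (13.3%, against 11.3% of all genes) among 30, with a median of 0.18. Itgb5 stood at 11.78 and 11.87 against 10.56, 10.59 and 10.57 and rose by 1.25 (SE 0.047), and Itgb3 rose by 0.92 (SE 0.062). Both encode integrin beta chains that pair with the alpha-v chain. Ccrl2 (-0.74), Itgal (-0.36), Cxcr2 (-0.23) and Itgb1 (-0.16) fell.

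Lysosomal genes had the largest share of rises of any list: 29 of 46 (63.0%) rose and 3 fell, with a median of 0.23. Ids, an enzyme of glycosaminoglycan breakdown, stood at 9.10 and 9.17 against 7.43, 7.44 and 7.67 (1.63, SE 0.081). Idua, another enzyme of that pathway, rose by 0.94 (SE 0.067). Mitf, a transcription factor of the family that drives lysosome genes, rose by 0.85 (SE 0.053), although a second probe set for it gave -0.078. Scarb2 (-0.57), Atp6v1h (-0.30) and Arsb (-0.23) fell. Counts dropped to 16 rises and 1 fall when Brg1sh_3232 replicate 2 was left out.

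Interferon-stimulated genes encode antiviral effectors and regulators of the interferon signal. Of 38 such genes measured, 17 rose (44.7%) and 2 fell, with a median of 0.21, and without Brg1sh_3232 replicate 2 the rises numbered 9. Irf9, a transcription factor of the type I interferon response, stood at 10.30 and 10.45 against 9.32, 9.32 and 9.32, a rise of 1.06 (SE 0.060, adjusted p = 1.39e-05). Usp18, which removes the ubiquitin-like protein ISG15 and dampens the interferon receptor, rose from 7.73, 7.88 and 8.03 to 9.50 and 9.83 (1.79, SE 0.11). Irf7, a factor that amplifies interferon production, rose by 1.10 (SE 0.081). Ifit3, an antiviral effector, stood at 6.91 and 7.08 against 6.17, 6.37 and 6.21 (0.74, SE 0.094). In all 4 genes both knockdown arrays were above the controls, as in all 1912 called rises, so this is not separate from the calls. The falls were Ifit2 (-0.57) and Herc6 (-0.45), a list of 4 without Rluc replicate 3.

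Because interferon response elements are known to hold repeated GAAA-like blocks, promoters were searched for GAAANNGAA on both strands in the 250 bases before the start, using RefSeq promoters of build GRCm38.p6. The match can overlap other GAAA blocks. Of the 4 leading genes of the list, Usp18 was not matched, and only the window of Ifit3 held the letters. Its stretch at chr19:34583402-34583461, plus strand, is shown with the matches in capitals, both reading on the other strand; the window holds 3 matches, and the third lies outside this stretch.
Ifit3: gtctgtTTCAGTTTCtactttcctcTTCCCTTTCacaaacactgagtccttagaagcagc
The motif was present in 4 of 12 matched genes that rose (33.3%), in 8 of 15 that were not called (53.3%) and in 8.18% of all genes in the promoter table. It was therefore no more frequent among the members that rose than among those that were not called.

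Of 40 genes for inflammatory cytokines or targets of NF-kB, 15 rose (37.5%), 1, the chemokine Ccl6 (-0.61), fell and 24 were not called, with a median of 0.12. Nfkbie, an inhibitor of NF-kB, stood at 10.17 and 10.22 against 9.11, 9.34 and 9.05 (1.03, SE 0.078). Il12a, a subunit of interleukin 12, rose by 0.98 (SE 0.079), Tnfaip3 (A20), another brake on NF-kB, by 0.56 (SE 0.044) and Icam1, an adhesion molecule, by 0.55 (SE 0.044). Of 19 antigen presentation genes, 6 rose (31.6%, against 9.59% of all genes) and 1 fell (5.26%, against 11.3%). Cd74, the invariant chain of MHC class II, rose by 0.56 (SE 0.079), H2-M3, a non-classical class I molecule, by 0.62 (SE 0.10) and Tapbp (tapasin), a peptide loader, by 0.36 (SE 0.052). H2-Ab1, a class II beta chain, fell by 0.52 (SE 0.096), opposite to Cd74. The rises numbered 3 without Brg1sh_3232 replicate 2.

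Early response and feedback genes of the Ras-MAPK pathway gave 13 rises (43.3%) and 4 falls (13.3%, against 11.3% of all genes) among 30, with a median of 0.17. Fos stood at 9.99 and 10.18 against 8.61, 8.40 and 8.72 (1.51, SE 0.11). Dusp5, a phosphatase that inactivates ERK in the nucleus, rose by 1.20 (SE 0.072), and the transcription factors Fosl2 and Klf10 rose by 0.75 (SE 0.058) and 0.37 (SE 0.045). The falls were Dusp1 (-0.55), Egr1 (-0.50), Dusp2 (-0.36) and Spry2 (-0.27), and they numbered 2 without either Brg1sh_3232 array and 1 without Rluc replicate 2, over every row, or with the 5 arrays alone.

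The largest fall was of Car4, carbonic anhydrase 4, an enzyme of the cell surface. Its levels were 6.99 and 7.40 with Brg1sh_3232 and 11.67, 11.64 and 11.80 with Rluc. The difference of -4.51 (SE 0.11, adjusted p = 4.37e-07) left 4.39% of the control level and was over 10 times the spread within either group. Hao1, a peroxisomal hydroxyacid oxidase, stood at 5.67 and 5.79 against 8.23, 8.45 and 8.96 (-2.82, SE 0.19). Fads2, a desaturase of polyunsaturated fatty acids, stood at 8.92 and 8.60 against 11.69, 11.55 and 10.92 (-2.63, SE 0.20). Rluc replicate 3 was the lowest of the controls for Fads2, yet lay above both knockdown arrays.

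Tspan2, a tetraspanin, fell by 2.50 (SE 0.12) and Serpinb10, a serine protease inhibitor of bone marrow cells, by 2.18 (SE 0.12). Muc13, a membrane mucin, fell by 1.94 (SE 0.067) and Chpt1, an enzyme of phosphatidylcholine synthesis, by 1.72 (SE 0.075). Cnn3, an actin-binding protein, fell by 1.61 (SE 0.12) and Il1f9, an interleukin 1 family cytokine, by 1.51 (SE 0.14). Atp1b1, a sodium pump subunit, fell by 1.51 (SE 0.16) and Slc40a1 (ferroportin), the iron exporter, by 1.47 (SE 0.057). Like the rises, these genes were chosen for groups that do not overlap.

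Of 15 primary granule genes and their regulators, 6 fell (40%, against 11.3% of all genes), with a median of -0.20. The hexokinase Hk3 (0.62) was the 1 rise (6.67%, against 9.59%). Nkg7, a granule membrane protein, stood at 7.28 and 7.30 against 9.99, 9.99 and 8.93 (-2.35, SE 0.28), with Rluc replicate 3 apart from the other controls. Mpo, myeloperoxidase, the chief enzyme of the primary granule, stood at 13.36 and 13.38 against 13.90, 13.79 and 13.72 (-0.43, SE 0.061). Cst7, a cysteine protease inhibitor, fell by 0.79 (SE 0.078). Of 29 late neutrophil genes, 8 rose (27.6%, against 9.59% of all genes) and 3 fell (10.3%, against 11.3%), with a median of 0.092. The falls were Camp, Wfdc21 (-0.66) and Cxcr2. Camp, the cathelicidin of secondary granules, stood at 8.95 and 8.98 against 11.14, 10.89 and 10.16 (-1.76, SE 0.23), whereas Mmp8, neutrophil collagenase, rose from 9.99, 9.67 and 9.27 to 11.25 and 11.23 (1.59, SE 0.16). For both genes Rluc replicate 3 was the lowest control. Arg2, arginase 2, rose by 0.93 (SE 0.12) and Padi4, which citrullinates histones, by 0.63 (SE 0.063). The mean level of this list was 10.67 in Rluc replicate 3 and between 10.91 and 11.06 in the other 4 arrays. Rises numbered 5 without Brg1sh_3232 replicate 2, and falls 5 without Rluc replicate 3.

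Genes of mast cells, basophils and eosinophils did not move as a group. Of 26 measured, 6 rose (23.1%, against 9.59% of all genes) and 4 fell (15.4%, against 11.3%), with a median of 0.021. Their mean level was 7.63 and 7.69 in the knockdown arrays against 7.48 to 7.53 in the controls. Beside the rise of Cpa3 stood a fall of Hdc, the histamine-producing decarboxylase, from 12.27, 12.27 and 12.06 to 10.63 and 10.70 (-1.53, SE 0.073). Prg2, the eosinophil major basic protein, rose by 0.95 (SE 0.060). Fcer1a, the alpha chain of the IgE receptor, lay between 4.55 and 4.60 on all 5 arrays, and Mcpt8, a basophil protease, gave -0.14 (adjusted p = 0.319). Ms4a2, the beta chain of the IgE receptor (-0.63), Epx, eosinophil peroxidase (-0.31), and Siglecf (-0.28) also fell, and the falls numbered 2 without either Brg1sh_3232 array.

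The synthesis of ribosomes needs RNA polymerases I and III, many processing factors of the nucleolus, and the enzymes that supply charged tRNAs and nucleotides. Of 49 ribosome biogenesis genes, 32 fell (65.3%) and 1, the helicase Dhx33 (0.20), rose, which was not called without Brg1sh_3232 replicate 2 or Rluc replicates 1 and 2. The median was -0.35, and 40 of the 49 had both knockdown arrays below all controls, against 20.8% of all genes. Over all genes, 2242 of the 2243 called falls lay below all controls, so this count is not separate from the calls. Utp4, a factor of the small subunit processome, stood at 11.81 and 11.75 against 12.20, 12.25 and 12.38 (-0.49, SE 0.058, adjusted p = 0.000521). Rrs1, needed for large subunit assembly, stood at 8.81 and 8.77 against 9.43, 9.31 and 9.60 (-0.66, SE 0.085). Mphosph10, also of the processome, fell by 0.49 (SE 0.065) and Rrp1b by 0.48 (SE 0.073). Rluc replicate 3 was the highest array for all 4 genes and for the mean level of the list, 11.19 against 10.96 and 10.98 in the other controls and 10.71 and 10.72 in the knockdown arrays. The falls numbered 20 without Brg1sh_3232 replicate 1 and 14 without replicate 2.

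CACGTG, the E-box to which Myc and Max bind, was searched on both strands in the same 250 bases. It reads the same on either strand and can lie within a longer palindrome. None of the 4 leading genes held it in a matched window, Rrs1 having no match in the table. The letters were in the windows of 1 of 30 matched genes that fell (3.33%), Utp18, and in 2 of 12 that were not called (16.7%). The window of Dhx33, the single rise, also held them. Over the whole list, 4 of 43 matched genes held the letters (9.3%), against 6.86% of all genes. A window without the letters says only that they are not in these 250 bases.

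Of 27 genes of RNA polymerases I and III, 9 fell (33.3%, against 11.3% of all genes) and 0 rose, with a median of -0.14. Polr1e, a subunit of polymerase I, fell by 0.55 (SE 0.058), Taf1b, of its selectivity factor, by 0.47 (SE 0.074), and Polr3g and Polr3f, subunits of polymerase III, by 0.46 (SE 0.078) and 0.40 (SE 0.070). Without Brg1sh_3232 replicate 1 the falls numbered 5. Of 18 aminoacyl-tRNA synthetases, 10 fell (55.6%) and 0 rose, led by the enzymes for glycine, Gars (-0.31, SE 0.044), and threonine, Tars (-0.44, SE 0.073). Without Brg1sh_3232 replicate 2 the falls numbered 6. Of 38 mitochondrial ribosome proteins, 13 fell (34.2%, against 11.3% of all genes) and 0 rose. Among the falls were Mrpl19 (-0.41, SE 0.047), Mrpl18 (-0.61, SE 0.071) and Mrps22 (-0.68, SE 0.090), and fewer genes fell without Brg1sh_3232 replicate 1.

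Of 26 genes of serine, folate and amino acid synthesis, a list that also held the iron importer Tfrc, 17 fell (65.4%) and 0 rose, with a median of -0.30. Tfrc stood at 10.51 and 10.40 against 11.56, 11.54 and 11.68 (-1.14, SE 0.072, adjusted p = 2.33e-05). Phgdh, the first enzyme of serine synthesis, stood at 9.78 and 9.89 against 10.65, 10.76 and 10.83 (-0.91, SE 0.063). Psat1, the next enzyme of that route, fell by 0.42 (SE 0.042) and Shmt1, which passes the serine carbon to folate, by 0.65 (SE 0.065). Of 26 genes of purine and pyrimidine synthesis, 12 fell (46.2%, against 11.3% of all genes) and 0 rose (2 rose without Rluc replicate 3). Ppat, the entry enzyme of purine synthesis, fell by 0.64 (SE 0.091) and Dut, which clears dUTP, by 0.58 (SE 0.073). Gmps fell by 0.42 (SE 0.071) and thymidylate synthase, Tyms, by 0.30 (SE 0.041).

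Of 20 cholesterol synthesis genes, 12 fell (60%, against 11.3% of all genes) and 0 rose, with a median of -0.27. Sqle, squalene epoxidase, stood at 10.93 and 10.75 against 11.51, 11.60 and 11.50 (-0.70, SE 0.071). Hmgcs1, an early enzyme of the pathway, fell by 0.48 (SE 0.068) and the later enzyme Hsd17b7 by 0.54 (SE 0.070). Idi1, an isoprenoid isomerase, fell by 0.53 (SE 0.068), and a second probe set for it gave -0.86. Without Brg1sh_3232 replicate 1 the falls numbered 7. Of 19 fatty acid synthesis genes, 1 rose (5.26%, against 9.59% of all genes) and 7 fell (36.8%, against 11.3%). Besides Fads2 they included the elongases Elovl6 (-0.76, SE 0.053) and Elovl5 (-0.38, SE 0.050) and the desaturase Scd2 (-0.72, SE 0.081). The single rise, Elovl7 (0.33), was lost without any 1 of 4 arrays, namely either Brg1sh_3232 array and Rluc replicates 1 and 3.

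Of 22 genes of glycolysis and lactate export, 2 rose and 3 fell, near the background shares. Slc16a1 (MCT1), the lactate transporter, fell by 0.82 (SE 0.10) and Pdk1, which restrains pyruvate entry to mitochondria, by 0.40 (SE 0.063). Ldhb was the third fall (-0.33). Hk3 rose, as did Slc16a3 (MCT4), another lactate transporter, by 0.18 (SE 0.045), a call lost without either Brg1sh_3232 array (adjusted p = 0.0742 and 0.0887). Of 41 respiratory chain subunits, 6 fell (14.6%, near the 11.3% of all genes) and 0 rose (against 9.59%). Ndufb3, of complex I, fell by 0.52 (SE 0.055) and Ndufa9 by 0.30 (SE 0.058). Ndufa9 lost its call without Brg1sh_3232 replicate 1, at an adjusted p of 0.0505. The falls numbered 3 without either Brg1sh_3232 array and 12 when the fit was kept to genes at or above the median level. Without regard to the test, 22 of the 41 had both knockdown arrays below all controls, against 20.8% of all genes.

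Mitosis genes showed the largest share of calls of any list. Of 41 mitosis genes, 35 fell (85.4%) and 0 rose, with a median of -0.34. Nuf2, of the kinetochore complex that grips microtubules, stood at 11.14 and 10.95 against 11.67, 11.66 and 11.77 (-0.65, SE 0.067). Aurka, the spindle pole kinase, stood at 11.22 and 11.14 against 11.69, 11.71 and 11.73 (-0.53, SE 0.047). Ttk, a spindle checkpoint kinase, fell by 0.52 (SE 0.047) and Cdk1, the kinase that starts mitosis, by 0.39 (SE 0.042). These genes were named for the smallest p on the list. Their controls were tightly grouped, and both knockdown arrays lay below the controls, as for 2242 of the 2243 called falls over all genes.

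Of 49 DNA replication genes, 26 fell (53.1%) and 0 rose, with a median of -0.19. Orc1, of the origin recognition complex, stood at 8.26 and 8.46 against 9.08, 9.10 and 9.09 (-0.73, SE 0.075). Cdc25a, the phosphatase that activates S phase kinases, fell by 0.67 (SE 0.049). Gins1, part of the replicative helicase, fell by 0.51 (SE 0.055) and Rfc3, a clamp loader subunit, by 0.40 (SE 0.043). Among 27 cell cycle inhibitors and quiescence genes, 10 rose (37%, against 9.59% of all genes). The non-coding Gas5 (-0.49) was the 1 fall (3.7%, against 11.3%), a call lost without either Brg1sh_3232 array. Cdkn1a was listed but not measured. Foxo1, a transcription factor of quiescence and nutrient stress, stood at 9.23 and 9.25 against 7.79, 7.96 and 7.83 (1.38, SE 0.068, adjusted p = 6.22e-06), or 2.60-fold. Trp53inp1 rose by 0.78 (SE 0.045), Btg1, an antiproliferative cofactor, by 0.64 (SE 0.054) and Sesn1, a brake on mTORC1, by 0.65 (SE 0.056). These rises numbered 5 without Brg1sh_3232 replicate 2.

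Of 19 Bcl2 family genes, 6 rose (31.6%, against 9.59% of all genes) and 3 fell (15.8%, against 11.3%). Bid, which links death receptors to mitochondria, rose from 11.06, 10.89 and 10.93 to 11.66 and 11.68 (0.71, SE 0.055). Bmf, another pro-apoptotic member, rose by 0.83 (SE 0.10), and so did Bcl2l1 (Bcl-xL), an anti-apoptotic one, by 0.35 (SE 0.047). Bcl2l14 fell by 0.83 (SE 0.064), Bnip3 by 0.19 and Bak1 by 0.17. Without Brg1sh_3232 replicate 1 the falls numbered 1. Of 23 p53 targets, 4 rose and 4 fell (17.4% each way, against 9.59% and 11.3% of all genes). Cdkn1a, Bax, Gdf15 and Trp53 itself were on the list but not measured. Trp53inp1, Sesn1, Ei24 (0.23) and Pmaip1 (0.19) rose. Gtse1 (-0.29, SE 0.049), Plk2 (-0.27, SE 0.051), Fas (-0.20) and Tigar (-0.16) fell. The rises numbered 2 without Brg1sh_3232 replicate 1, and the falls 2 without replicate 2.

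Of 25 integrated stress response genes, which the factor Atf4 drives, 12 fell (48.0%) and 1, Atf3 (0.36), rose, with a median of -0.16. Cth, which makes cysteine, stood at 8.26 and 8.30 against 9.73, 9.76 and 9.22 (-1.29, SE 0.14), with Rluc replicate 3 the lowest control. Stc2, a secreted glycoprotein, fell by 0.76 (SE 0.060). Several members, Phgdh and Psat1 among them, are also on the serine list. Of 22 unfolded protein response genes, 7 fell (31.8%, against 11.3% of all genes) and 1, Atf6 (0.27), rose (4.55%, against 9.59%). The rises numbered 0 without Rluc replicates 2 or 3. Pdia6 fell by 0.42 (SE 0.055), Dnajb11 by 0.50 (SE 0.078) and Creld2 by 0.25 (SE 0.041). Hspa5 (BiP), the main chaperone of the endoplasmic reticulum, fell by 0.24 (SE 0.052), a call lost without Brg1sh_3232 replicate 2 (adjusted p = 0.0792), when the falls numbered 3. Of 31 proteasome genes, 8 fell (25.8%, against 11.3% of all genes) and 0 rose. The falls were led by the cap subunits Psmd6 (-0.42, SE 0.074) and Psmc6 (-0.34, SE 0.062), and fewer genes fell without Brg1sh_3232 replicate 2.

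**Figure D3:**
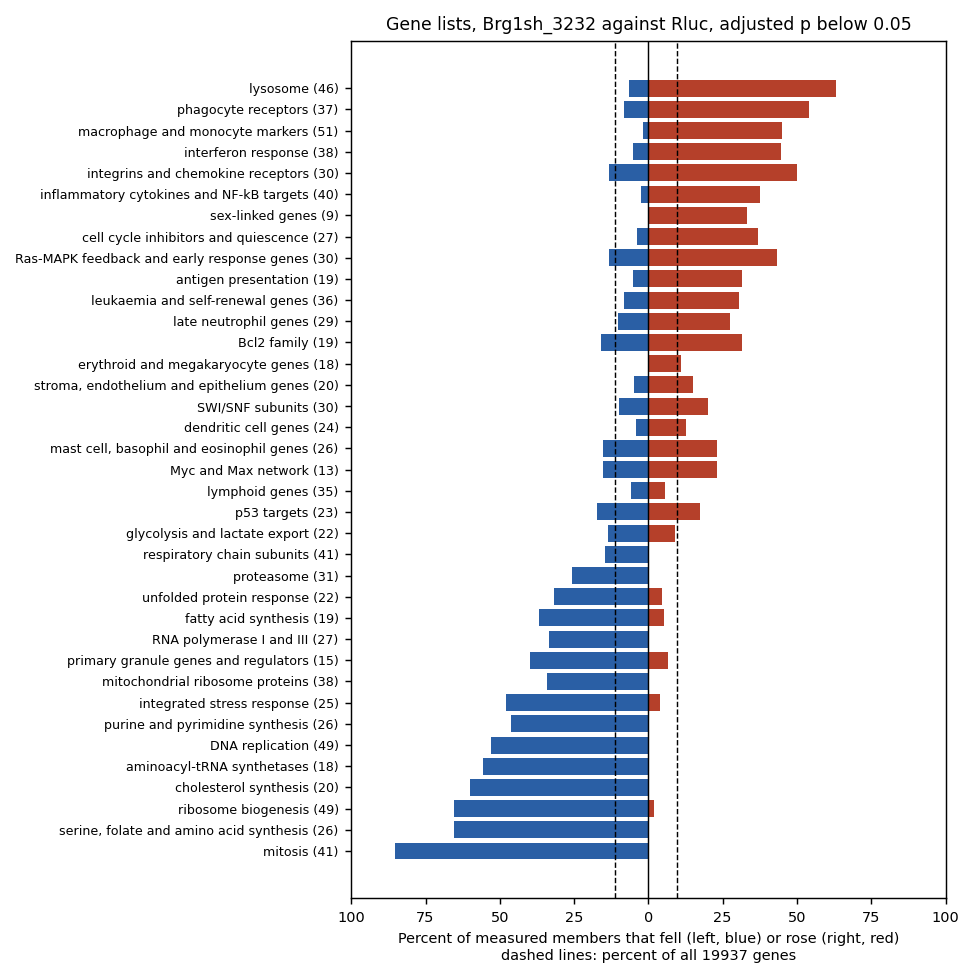
Bars give the percent of each list's measured genes that fell (blue, left) or rose (red, right) with Brg1sh_3232 against Rluc at an adjusted p below 0.05, and the number measured stands behind each list's name. Dashed lines mark the shares over all genes, 11.3% fallen and 9.59% risen. The longest bar on the left is mitosis (85.4% fell) and on the right lysosome (63.0% rose).

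Markers of lineages other than the myeloid one were called at or near the background shares. Of 35 lymphoid genes, 2 rose and 2 fell: Prf1 (perforin) fell by 0.51 (SE 0.057), Cd79b, of the B cell receptor, by 0.54 (SE 0.093), while Il7r rose by 0.69 (SE 0.18) and Klrd1 by 0.32 (SE 0.075). The 2 knockdown arrays differed for Il7r, at 6.59 and 7.34, and its call was lost without replicate 2 (0.32, adjusted p = 0.074). Klrd1 lost its call without either of them, as did Cd86 (adjusted p = 0.163 and 0.0771). Of 24 dendritic cell genes, 3 rose (Id2 0.34, Klrd1, Cd86 0.38), and 1 without Brg1sh_3232 replicate 2, while 1, Cd80 (-0.51), fell, for which a second probe set gave -0.39. Of 18 erythroid and megakaryocyte genes, 2 rose, Nfe2 (0.51, SE 0.055) and Vwf (0.23), the latter not without Brg1sh_3232 replicate 2 (adjusted p = 0.191). Of 20 genes of stroma, endothelium and epithelium, 3 rose and 1 fell. Pdgfrb, a growth factor receptor of mesenchymal cells, rose by 0.84 (SE 0.071) and Pecam1, also made by leukocytes, by 0.71 (SE 0.051). Lum (0.18) rose and Acta2 (-0.35) fell, calls lost without either Brg1sh_3232 array or Rluc replicates 1 or 3. Col1a1, Col1a2, Cdh5 and Krt8, which define those cell types, were not called, and the part of other cell types in these results was not tested.

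Of 9 sex-linked genes, 3 rose (33.3%, against 9.59% of all genes) and 0 fell (against 11.3%). Eif2s3y, a Y-linked translation factor subunit, stood at 6.02 and 6.40 against 4.78, 4.88 and 5.08 (1.30, SE 0.11, adjusted p = 0.000108). Kdm5d, a Y-linked histone demethylase, rose by 0.61 (SE 0.091) from levels of 8.93 to 9.25 in the controls. Uty rose by 0.48 (SE 0.10) from 9.63 to 10.01, and lost its call without either Brg1sh_3232 array. Usp9y (0.017), Zfy1 (0.008), Zfy2 (0.024), Sry (0.029), Uba1y (-0.036) and Xist (0.040) were not called. Xist lay between 5.16 and 5.28 on all 5 arrays.

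Set directly against the other hairpins, Brg1sh_3232 was closer to Brg1sh_4935 than to Brg1sh_3364 in the count of genes called. Against Brg1sh_3364, 766 genes were higher (3.84%) and 1159 lower (5.81%) with Brg1sh_3232. Against Brg1sh_4935, 82 were higher (0.411%) and 122 lower (0.612%). The largest rises named above all gave negative differences from Brg1sh_4935, from -0.14 (Cpa3, adjusted p = 0.918) to -1.13 (C3ar1, adjusted p = 0.0717). Of these genes, only Fblim1 was called (-0.55, adjusted p = 0.0212). The unadjusted 95% intervals lay wholly on the negative side except for Cpa3, F2rl2, Mc5r and Camk1d. In the same direction against both other hairpins, 46 genes were higher (0.231%) and 50 lower (0.251%). These counts are unsteady. Leaving out 1 array at a time gave 2 to 86 higher and 3 to 131 lower, the fewest without Brg1sh_4935 replicate 1 (2 and 3), and 5 and 6 without Brg1sh_3232 replicate 1.

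Car4 and Eif2s3y, both lower than with either other hairpin, were the only genes, of those named for such a difference, that passed against both in every alternative run, 18 for Car4 and 17 for Eif2s3y. Car4 fell by 4.51 with Brg1sh_3232 and by 2.08 and 2.51 with Brg1sh_3364 and Brg1sh_4935, all against the same controls. The direct differences were -2.42 (SE 0.12, adjusted p = 2.47e-05) and -1.998 (SE 0.12, adjusted p = 0.00082). Eif2s3y gave 1.30, 4.37 and 2.99 against the shared controls, and direct differences of -3.07 (SE 0.12, adjusted p = 7.03e-06) and -1.69 (SE 0.12, adjusted p = 0.00154). The arrays of the 3 hairpins did not overlap for either gene.

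Other genes lower with Brg1sh_3232 than with both passed in fewer alternatives. Lrrk2, a large kinase of myeloid cells, barely rose (0.25, SE 0.066) against 2.78 and 0.98 with Brg1sh_3364 and Brg1sh_4935, and was called against both in 15 of 18 alternatives. The rise of Lrrk2 against Rluc was lost without Brg1sh_3232 replicate 2 (0.17) and without any 1 control array. It was also lost with the mean of its probe sets (adjusted p = 0.0549), over every row (0.072) and with the 5 arrays alone (0.0553). A second probe set for Lrrk2 gave 0.175 (adjusted p = 0.342). Eya1 rose by 1.45, 3.62 and 2.25 and was called in 13 of 18. Cntln, a centrosomal protein, rose by 0.36, 2.36 and 0.93, called in 13 of 17. St3gal5, a ganglioside synthase, gave 0.071, 1.24 and 0.86, called in 13 of 18. Asprv1, a skin protease, fell by 0.65 with this hairpin beside changes of 1.21 and 0.074, called in 12 of 18, and Taf9b, a TFIID-related factor, fell by 0.81 beside 0.46 and -0.11, called in 11 of 18. For Eif2s3y, Lrrk2, Eya1 and Cntln the order from highest to lowest was Brg1sh_3364, Brg1sh_4935, Brg1sh_3232 and Rluc, with no overlap between groups.

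Of the 8 genes named as higher with Brg1sh_3232 than with both, 3 rose against Rluc, 4 fell and 1 was not called. Rnf128, a ubiquitin ligase, stood at 7.63 and 7.45 against 6.72, 6.76 and 6.89 in the controls, a rise of 0.75 (SE 0.071), beside 0.019 and -0.017 with the other hairpins. Frmd4b, a scaffold protein, rose by 0.67 beside -0.27 and 0.14, and Endou, an endoribonuclease, by 0.52 beside -0.20 and -0.14. Among those that fell, Afap1, an actin-binding protein, fell by 0.85 beside -1.59 and -1.56, Ldlrad3 by 0.68 beside -1.56 and -1.19, Papss2, which activates sulfate, by 0.42 beside -1.09 and -1.13, and B3gnt5, a glycosyltransferase, by 0.28 beside -1.45 and -0.91. Sec24d, a coat protein of transport vesicles, gave -0.20 (adjusted p = 0.0541) beside -1.17 and -0.83. Each was called against both hairpins in 10 to 13 of 17 or 18 alternatives, and none without Brg1sh_4935 replicate 2. Papss2 lost its own fall without Brg1sh_3232 replicate 1 (adjusted p = 0.0548), and B3gnt5 lost its own without either Brg1sh_3232 array or Rluc replicate 2 (adjusted p = 0.0727, 0.146 and 0.0576).

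**Figure D4:**
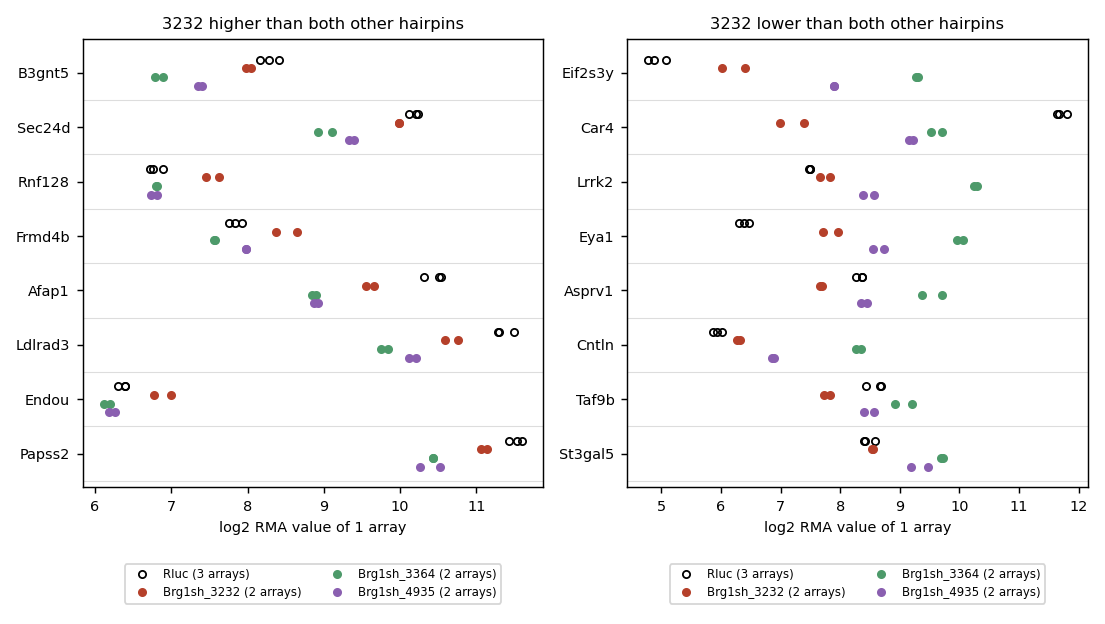
Each point is 1 array's level (log2 RMA value, x axis) of a gene (y axis), for the 3 Rluc arrays (open) and the 2 arrays of each Brg1 hairpin (filled, 1 colour each). On the right, Car4 is lowest with Brg1sh_3232 (6.99 and 7.40), and Eif2s3y lies between the controls and the other hairpins.

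Mpo fell by 0.43 with Brg1sh_3232, beside -1.07 and -1.12 with Brg1sh_3364 and Brg1sh_4935. The direct differences were 0.64 (SE 0.066, adjusted p = 0.000852) and 0.69 (SE 0.066, adjusted p = 0.00581), and both passed in 15 of 18 alternatives, not without Brg1sh_3232 replicate 1 or either Brg1sh_4935 array. Of the 15 primary granule genes, 6 were higher and 2 lower with Brg1sh_3232 than with Brg1sh_3364 (3.84% and 5.81% of all genes), and 3 were higher and 0 lower than with Brg1sh_4935. Of 29 late neutrophil genes, 0 were higher and 13 lower than with Brg1sh_3364. Prg2 gave 0.95 beside 3.34 with Brg1sh_3364 (difference -2.39, adjusted p = 8.55e-07) and 0.91 with Brg1sh_4935. For ribosome biogenesis, 16 of 49 genes were higher and 0 lower than with Brg1sh_3364, and for mitosis 0 higher and 9 lower of 41. Against Brg1sh_4935 both lists had 0 genes called, where 0.411% and 0.612% of all genes were called.

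**Figure D5:**
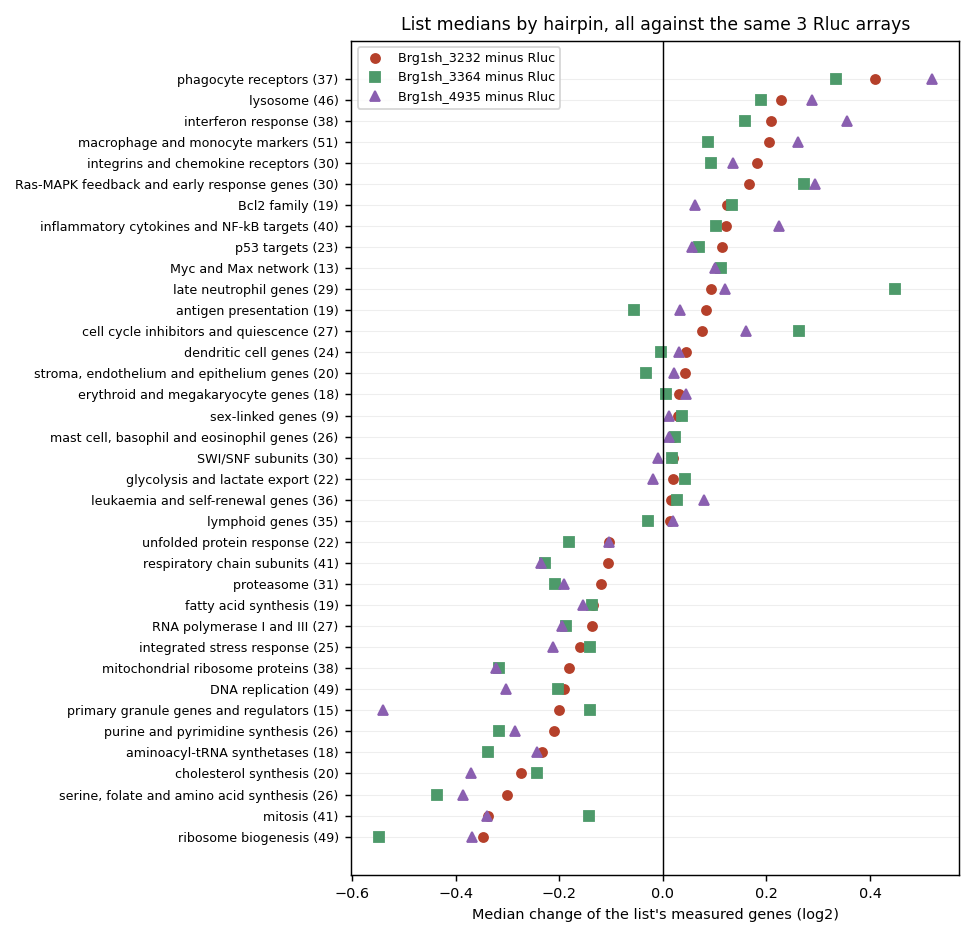
Each symbol is the median change (log2, x axis) of a list's measured genes with 1 hairpin, all against the same 3 Rluc arrays, so that the 3 symbols of a row are not independent. For Brg1sh_3232 (red circles) the medians run from -0.35 (ribosome biogenesis) to 0.41 (phagocyte receptors), and the late neutrophil list shows Brg1sh_3364 at 0.45 beside 0.092.

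Opposite directions against the shared controls were met in 5 genes that fell with Brg1sh_3232 and rose with both other hairpins. Cxcr2, the neutrophil receptor for interleukin 8-type chemokines, stood at 9.40 and 9.47 against 9.71, 9.62 and 9.65 (-0.23, SE 0.052), beside 0.39 and 0.41. Its direct differences were -0.62 (adjusted p = 0.00051) and -0.64 (adjusted p = 0.00455), lost without either Brg1sh_4935 array, and its fall against Rluc was lost without Brg1sh_3232 replicate 1 (adjusted p = 0.088). Stap1, an adaptor of tyrosine kinases, gave -0.30 beside 0.15 and 0.17. Thap6 (-0.29 beside 0.29 and 0.30) and Lpcat2, a lysophospholipid acyltransferase (-0.21 beside 0.23 and 0.18), passed against both hairpins in 10 of 18 alternatives. Thap6 lost its fall against Rluc without either Brg1sh_3232 array (adjusted p = 0.148 and 0.0786) and without Rluc replicates 2 and 3, and Lpcat2 without Brg1sh_3232 replicate 2 (adjusted p = 0.135).

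The remaining gene of the 5 was Mir16-2, and probe sets over the related Mir15a and Mir15b were also lower with Brg1sh_3232 than with both. They are given here because they share a seed, and were chosen after their values were seen. The mature 5p sequences from RefSeq (GRCm38.p6) are shown with the seed, bases 2 to 8, in capitals; Mir16-1 and Mir16-2 encode the same mature sequence.
Mir15a: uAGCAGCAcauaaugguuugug
Mir15b: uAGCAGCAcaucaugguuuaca
Mir16-2: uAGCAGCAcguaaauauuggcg
The probe sets do not tell the mature form from the primary transcript. Mir16-2 lay at or below 5.42 on both Brg1sh_3232 arrays and stood at 5.67, 5.67 and 5.80 with Rluc, a fall of 0.40 (SE 0.078), beside 0.43 and 0.32 with Brg1sh_3364 and Brg1sh_4935. These Mir16-2 levels were below the array medians (7.39 to 7.49) and near those of the megakaryocyte marker Pf4 (5.22 to 5.40). Mir15b, from the same cluster on chromosome 3, stood at 6.52 and 6.96 against 6.99, 7.09 and 7.33 (-0.39, SE 0.13, adjusted p = 0.067), beside 0.24 and 0.41. Mir15a, of the other cluster on chromosome 14, gave -0.065 (adjusted p = 0.669) beside 0.54 and 0.61. Mir16-1, next to it, gave 0.029 beside 0.32 and 0.36, and its direct differences did not pass (adjusted p = 0.073 and 0.11). Smc4, the gene that hosts the chromosome 3 cluster, gave -0.074 (adjusted p = 0.372). Probe sets over Mir195a and Mir497, looked up with these, were called against neither other hairpin. Their differences from Brg1sh_3364 and Brg1sh_4935 were -0.002 and -0.143 for Mir195a, and 0.016 and -0.032 for Mir497. Against both hairpins, Mir15a was called in 12 of 18 alternatives, Mir16-2 in 12 of 17 and Mir15b in 9 of 17, and none of the 3 without either Brg1sh_4935 array.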

How the data were processed

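The authors deposited a table of RMA values on the log2 scale (RMA per the submitters' processing notes), which corrects background and equalises arrays before summarising each probe set. For its version and the genome build: not given in the sources used here. Neither scan date nor detection above background was examined.

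Of 34760 probe sets, 21640 had 1 symbol in the platform annotation, 1321 several and 11799 none; 21553 were found in the RefSeq table by identifier, which altered 0 symbols. For 954 genes with several probe sets, the one with the highest mean over the 9 arrays was kept. A model of group means over the 9 arrays was fitted in R 4.3.3 with limma 3.58.1 (eBayes, 5 residual and 3.85 prior degrees of freedom). Tests were two-sided, with Benjamini-Hochberg adjustment over 19937 genes and calls below 0.05. Contrasts were Brg1sh_3232 minus Rluc and minus each other hairpin. The fit was tested on simulated data, and alternatives changed the scaling, the probe set rule, the filter, the threshold, the arrays fitted, array weights and the replicate block. The labels do not say whether replicates are separate cultures; the p-values reflect just the spread among these arrays, which may be technical.

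Named genes were 10 set genes, the 14 largest non-overlapping rises and falls, 8 genes each way that differed from both other hairpins, genes opposite to both, the 4 members of each list with the smallest p, and all sex-linked genes; predicted models, small RNAs and receptor segments were left out of the ranked parts. Members of counts of 5 or fewer were named after their values were seen. The comparison and the 37 lists (1069 of 1152 entries measured) were chosen with earlier results of these data known. Lists are described by counts and medians, with no test.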

Additional observations from a re-analysis of the deposited data

Results flagged for a closer look

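Of the named genes, 4 had effects against the shared controls that were called in opposite directions between this hairpin and both others, with the difference itself called against each. Brg1sh_3232 minus the mean of the other hairpins was -0.63 for Cxcr2, -0.58 for Thap6, -0.46 for Stap1 and -0.42 for Lpcat2 on the log2 scale. No group had the 4 arrays needed to look for a single array apart from the rest.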

How the results depend on the processing

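Smarca4 kept its direction and call in every alternative run, from -0.89 to -1.11 when 1 array was left out. Rises (1912) and falls (2243) numbered 1143 and 1237 at an adjusted p below 0.01 and 1184 and 1291 when the 5 arrays were fitted alone; leaving out 1 array gave 1136 to 1808 and 1337 to 2328. Genes higher than with both other hairpins (46) numbered 75 after a second quantile step, 74 with median-centred arrays, 94 among genes at or above the median level, 3 over every row and 6 below 0.01, and 2 to 86 with 1 array left out. Genes lower than with both (50) numbered 108 at or above the median level, 11 over every row, 87 with array weights, 8 below 0.01, and 3 to 131 with 1 array left out. The labels do not say that replicate numbers pair arrays: same-numbered Brg1sh_3232 and Rluc arrays deviated together (0.19 and 0.25) but Brg1sh_3232 and Brg1sh_3364 arrays did not (-0.072). With replicate number as a block, 1610 genes rose and 1877 fell, and 64 were higher and 112 lower than with both, and the Myc call was lost (adjusted p = 0.063).

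Over 187 named genes, 2641 alternative values kept direction and call, 115 lost the call, 7 gained it and 17 changed sign, all of genes not called: Kit (-0.018 centred, -0.003 weighted, -0.021 blocked, -0.027 to 0.042 with 1 array left out), Usp9y (-0.009 centred), Zfy1 (-0.002 quantile, -0.017 centred, -0.028 weighted, -0.080 to 0.103 with 1 array left out), Zfy2 (-0.002 centred, -0.072 to 0.120 with 1 array left out) and Sry (-0.024 blocked, -0.026 to 0.085 with 1 array left out). Of the list counts, 949 stayed within 1.5 times and 161 moved. The cause of these shifts was not tested.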

Other observations

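Probe sets that the annotation does not tie to a single gene, 13120 in all, stood outside the comparison by gene. In a fit of every row, 321 of them were higher and 296 lower with Brg1sh_3232 than with Rluc (4.70%), against 14% of the named rows. At least 2-fold changes were 29 rises and 20 falls. These rows carry no gene name here.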
